A study of Rattus norvegicus with 9 samples.

Results

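The interleukin-1 family holds secreted messengers of inflammation, their receptors and a set of built-in brakes. The 10 genes described here are the rows of the deposited count table whose symbols are Il1a, Il1b, Il18, Il33, Il1rn, Il1r1, Il1rap, Il1r2, Il1rl1 and Nlrp3, out of 23768 genes in that table, and all 10 passed the filter on low counts. RNA was measured by sequencing in tibiae of male Sprague Dawley rats (Rattus norvegicus), in 3 groups of 3 libraries named Model (numbered 1, 2 and 5), GelMA (numbered 2, 3 and 4) and PMLGH (also 2, 3 and 4). The series title speaks of a peptide that imitates lysyl oxidase and of bone healing in diabetes. The labels give Model, GelMA and PMLGH as the treatments, and say no more about what the Model animals carry, what PMLGH stands for, the age of the animals, the time of sampling or the number of animals. Libraries of a group may therefore share an animal, and the p-values measure only the spread between these libraries. GelMA is the common short name of gelatin methacryloyl, a modified gelatin that sets into a hydrogel. GelMA and PMLGH are called the treated groups below.

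In this family, Il1a and Il1b encode ligands that bind the receptor encoded by Il1r1, which signals only once the accessory protein encoded by Il1rap joins it. Il1rn encodes an antagonist that occupies the receptor without signalling, and Il1r2 encodes a decoy receptor that binds ligand and cannot signal. Il33 encodes an alarmin stored in the nucleus of stromal and endothelial cells, and Il1rl1 encodes its receptor ST2, which also pairs with the Il1rap product. IL-1 beta and IL-18 are made as precursors that caspase-1 cuts inside the inflammasome, a complex that the sensor encoded by Nlrp3 can assemble. In bone, interleukin-1 is known as a stimulus of osteoclast formation and as an early signal after fracture. Counts per gene do not separate the secreted and the membrane-bound forms that several of these genes encode, and they do not show processing of the proteins.

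Library totals ran from 34571478 to 37166383 counts. Model 2 stood apart within its group: over 13686 genes, its counts differed from those of Model 1 and Model 5 with an average chi-square of 33.0 and 27.7, while those libraries differed from each other with 15.7. Of the 10 family genes, 7 were highest and 1, Il33, was lowest in Model 2 among the Model libraries. The share of all genes that were highest or lowest there is not given, so these counts do not set the family apart. The bone markers, among them Bglap, Ibsp, Sost and Ctsk, were all detected, and their summed level was 2579 to 3513 CPM in Model, 5127 to 5327 in GelMA and 4578 to 5787 in PMLGH. CPM stands for the usual read count scaled to library size, here to the TMM-adjusted library total. No batch is named in the labels, and one shared by the libraries of a group cannot be told apart from its treatment. In bulk tissue, more cells of a type and more RNA per cell cannot be told apart either.

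Most of the interleukin-1 family was higher in PMLGH than in Model. Il1a, Il1b, Il1rn, Il1r1, Il1r2, Il1rap and Il18 rose, none fell, and Il33, Il1rl1 and Nlrp3 did not pass. That is 7 of 10 genes with edgeR adjusted p under 0.05, where 27.5% of all 16816 genes tested passed and 15.7% rose. Their median log2 fold change was 0.58, against 0.02 over all genes tested, and in 6 of the 10 the libraries of the groups did not overlap, as in 39.4% of all genes. At an unadjusted edgeR p under 0.05 the counts were 8 higher and 0 lower, and by DESeq2 7 and 0. Shares of all genes that passed, rose or fell are given here and below only for edgeR adjusted p under 0.05. Counts at an unadjusted p or by DESeq2 therefore have no share to be set against. In GelMA against Model, 5 rose (Il1b, Il1rn, Il1r1, Il1r2 and Il1rl1), Il33 fell and 4 did not pass, where 22.6% of all genes passed, 12.7% higher and 9.88% lower. The median there was 0.57 against 0.03 over all genes, and 6 of the 10 did not overlap, as in 36.6% of all genes. Both comparisons use the same Model libraries. In PMLGH against GelMA, Il1a, Il1b and Il1r1 rose and 7 did not pass, where 3.44% of all genes passed and 1.80% rose. The median was 0.19 against 0.00 over all genes, and 4 of the 10 did not overlap, as in 23.7% of all genes. None of the 10 was lower there at an unadjusted p under 0.05 or by DESeq2 either.

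**Figure D1:**
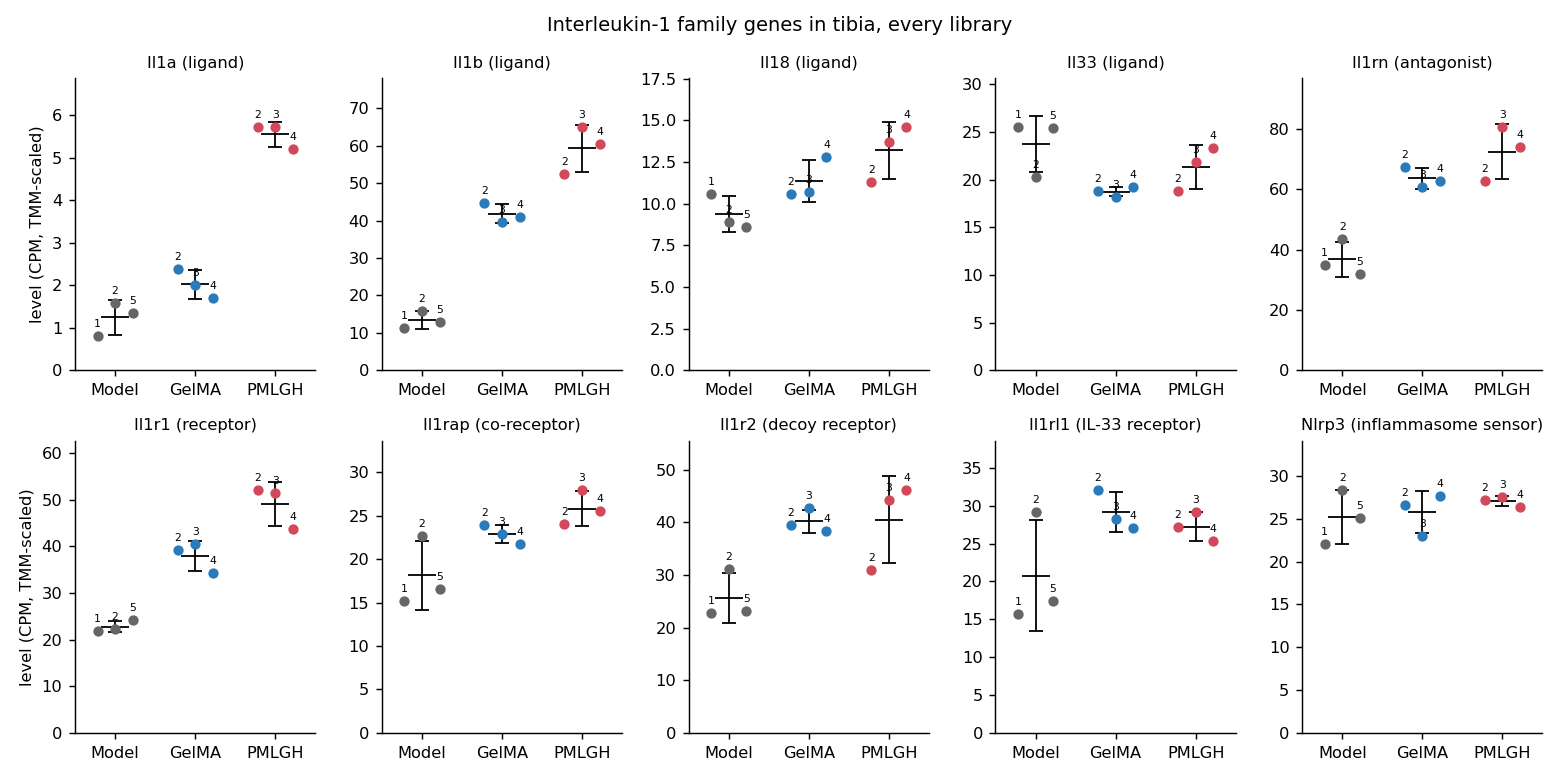
Level of each of the 10 genes in CPM (vertical axis, starting at 0) in every library of Model, GelMA and PMLGH. Each point is a library with its replicate number, and the black tick and bars are the group mean and SD of 3 libraries; Il1b stood at 11.3 to 15.9 in Model and 52.4 to 65.0 in PMLGH, while the groups overlapped for Nlrp3.

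Il1b, the agonist that activated myeloid cells secrete, had 11.3, 15.9 and 13.0 CPM in Model 1, 2 and 5. It had 44.6, 39.7 and 41.0 CPM in GelMA 2, 3 and 4, and 52.4, 65.0 and 60.5 CPM in PMLGH 2, 3 and 4. All libraries of GelMA lay above all of Model, and all of PMLGH above all of GelMA. The log2 fold change was 1.64 ± 0.11 in GelMA against Model (approximate SE, edgeR adjusted p = 1.3e-07) and 2.15 ± 0.11 in PMLGH against Model (adjusted p = 3.7e-09), a 3.12-fold and a 4.43-fold rise. PMLGH stood 1.42-fold above GelMA (log2 fold change 0.51 ± 0.10, adjusted p = 0.012). That last call was lost without GelMA 3, GelMA 4, PMLGH 3 or PMLGH 4 (adjusted p = 0.064, 0.056, 0.086 and 0.056) and with limma on the log2 FPKM scales (0.076 and 0.069). Its adjusted p ran from 0.00022 to 0.086 across the alternatives.

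Il1a encodes the other agonist, which is active already as its precursor. Its counts were low, 27, 56 and 46 in Model 1, 2 and 5, 86, 73 and 63 in GelMA 2, 3 and 4, and 212, 212 and 191 in PMLGH 2, 3 and 4. In CPM this was 0.796 to 1.58 in Model, 1.70 to 2.38 in GelMA and 5.21 to 5.72 in PMLGH. The 3 groups did not overlap, and the wider gap lay between GelMA and PMLGH. Il1a rose by 2.15 ± 0.25 on the log2 scale in PMLGH against Model (edgeR adjusted p = 1.8e-05) and by 1.45 ± 0.24 in PMLGH against GelMA (adjusted p = 0.0024), and both calls held in every alternative run. In GelMA against Model the log2 fold change was 0.70 ± 0.26 and did not pass (adjusted p = 0.065), but it passed without Model 2 (0.88, adjusted p = 0.025; range over its alternatives 0.025 to 0.24). Among the 10 genes, Il1a had the largest fold change between PMLGH and GelMA, 2.74-fold.

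Il1a and Il1b are next to each other in RefSeq's rat gene table of the assembly GRCr8, with no coding gene between them, and Il1rn is flanked there by Il1f10 and Psd4. The 250 bases before the start of these genes, from RefSeq's promoter table of the same build, are shown because these are the agonists that rose most and their antagonist. The build of the deposited counts is not given in the sources used here. The windows are chr3:136990018-136990267 for Il1a (minus strand), chr3:137036582-137036831 for Il1b (minus strand) and chr3:27520072-27520321 for Il1rn (plus strand), each written 5′ to 3′ toward the gene, with capitals at the matches described next.
Il1a: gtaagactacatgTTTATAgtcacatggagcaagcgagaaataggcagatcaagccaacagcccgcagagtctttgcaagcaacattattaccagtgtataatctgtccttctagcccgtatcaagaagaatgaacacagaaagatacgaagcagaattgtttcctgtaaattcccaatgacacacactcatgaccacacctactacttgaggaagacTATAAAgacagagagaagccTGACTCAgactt
Il1b: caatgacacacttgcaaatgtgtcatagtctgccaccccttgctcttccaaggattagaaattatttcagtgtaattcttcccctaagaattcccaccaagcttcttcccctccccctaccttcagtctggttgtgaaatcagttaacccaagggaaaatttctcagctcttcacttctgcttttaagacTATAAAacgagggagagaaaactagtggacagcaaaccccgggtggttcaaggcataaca
Il1rn: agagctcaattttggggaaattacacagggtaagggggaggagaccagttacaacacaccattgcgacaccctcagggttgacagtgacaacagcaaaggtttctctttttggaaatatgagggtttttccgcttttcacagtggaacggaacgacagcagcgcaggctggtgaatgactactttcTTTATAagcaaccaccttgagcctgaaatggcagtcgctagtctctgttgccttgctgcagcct
Matches were sought on both strands for the letters TATAAA of the TATA box, GGGA and CC with 4 bases of any kind between them for NF-kB, TGANTCA for AP-1 and TTGCNNAA for C/EBP. The Il1a window holds TATAAA at 32 to 27 bases before the start and TGACTCA at 12 to 6 bases before it, and TTTATA, the TATA letters on the other strand, at 237 to 232. The Il1b window holds TATAAA at 60 to 55 bases before the start, and the Il1rn window holds TTTATA at 64 to 59. TGACTCA matches the AP-1 letters on both strands at the same bases. Apart from that, no 2 of these matches overlapped. Neither the NF-kB letters nor the C/EBP letters occur in these 3 windows, and the AP-1 letters only in that of Il1a. Over all 33469 windows of this length, TATAAA was present in 12.9%, the NF-kB letters in 16.4%, the AP-1 letters in 6.34% and the C/EBP letters in 9.22%. Of the 10 genes, 9 had an entry in the promoter table, and Il1r2 had none. Among the other members with an entry, the NF-kB letters occur only in the windows of Il1rap. The C/EBP letters occur there only in a window of Il33, and the AP-1 letters in none.

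Il18 encodes a ligand that drives interferon gamma production by T and NK cells. It had 10.6, 8.90 and 8.60 CPM in Model 1, 2 and 5, 10.6, 10.7 and 12.8 CPM in GelMA 2, 3 and 4, and 11.3, 13.7 and 14.6 CPM in PMLGH 2, 3 and 4. PMLGH lay above Model in every library, and GelMA overlapped both. Il18 rose by 0.49 ± 0.13 in PMLGH against Model (edgeR adjusted p = 0.012), a call lost without Model 5 or PMLGH 4 (0.061 and 0.058; range over its alternatives 0.0074 to 0.061). In GelMA against Model it did not pass (0.28 ± 0.13, adjusted p = 0.15). Its soluble inhibitor, encoded by Il18bp, rose in both, by 0.72 ± 0.14 in PMLGH (adjusted p = 0.0013) and by 0.55 ± 0.14 in GelMA (adjusted p = 0.011, and 0.077 without GelMA 4).

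Il33 went the other way. Its levels were 25.5, 20.3 and 25.4 CPM in Model 1, 2 and 5, 18.8, 18.2 and 19.2 CPM in GelMA 2, 3 and 4, and 18.8, 21.8 and 23.3 CPM in PMLGH 2, 3 and 4. GelMA lay below Model in every library, and PMLGH overlapped both. Il33 fell by 0.34 ± 0.10 in GelMA against Model (edgeR adjusted p = 0.030). The call was lost without Model 1, Model 5, GelMA 2, GelMA 3 or GelMA 4 (adjusted p = 0.12, 0.11, 0.065, 0.084 and 0.056) and with limma on the log2 FPKM scales (0.12 each). Its adjusted p ran from 0.0013 to 0.12 across the alternatives. In PMLGH against Model the log2 fold change was -0.16 ± 0.10 and did not pass (adjusted p = 0.30); without Model 2 it was -0.29 and passed (adjusted p = 0.030).

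The antagonist gene Il1rn had 35.0, 43.4 and 32.0 CPM in Model 1, 2 and 5, 67.6, 60.8 and 62.7 CPM in GelMA 2, 3 and 4, and 62.9, 80.7 and 74.1 CPM in PMLGH 2, 3 and 4. Both treated groups lay wholly above Model and overlapped each other. Il1rn rose by 0.79 ± 0.11 in GelMA (edgeR adjusted p = 9.2e-05) and by 0.98 ± 0.11 in PMLGH against Model (adjusted p = 8.7e-06), and PMLGH against GelMA did not pass (0.19 ± 0.10, adjusted p = 0.41). The decoy receptor gene Il1r2, which neutrophils and monocytes express, had 22.8, 31.1 and 23.1 CPM in Model 1, 2 and 5, 39.5, 42.7 and 38.4 CPM in GelMA 2, 3 and 4, and 31.0, 44.2 and 46.2 CPM in PMLGH 2, 3 and 4. PMLGH 2 was at the level of Model 2, so those groups overlapped. Il1r2 rose by 0.65 ± 0.14 in GelMA (adjusted p = 0.0035) and by 0.66 ± 0.14 in PMLGH against Model (adjusted p = 0.0025). PMLGH against GelMA gave 0.01 ± 0.14 (adjusted p = 0.99), and its sign changed between scalings, with -0.0092 under upper-quartile scaling.

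The signalling receptor gene Il1r1 had 21.9, 22.3 and 24.1 CPM in Model 1, 2 and 5, 39.1, 40.4 and 34.3 CPM in GelMA 2, 3 and 4, and 52.1, 51.3 and 43.7 CPM in PMLGH 2, 3 and 4. The 3 groups did not overlap. Il1r1 rose by 0.74 ± 0.09 in GelMA (edgeR adjusted p = 3e-05) and by 1.11 ± 0.09 in PMLGH against Model (adjusted p = 3.2e-07), a 2.15-fold rise. PMLGH stood 0.37 ± 0.08 above GelMA (adjusted p = 0.023), a call lost without GelMA 2, GelMA 4, PMLGH 2 or PMLGH 3 (adjusted p = 0.0545, 0.13, 0.11 and 0.12) and with limma on the log2 FPKM scales (0.15 and 0.13). Its adjusted p ran from 0.0021 to 0.15 across the alternatives. The accessory protein gene Il1rap had 15.2, 22.7 and 16.6 CPM in Model 1, 2 and 5, 23.9, 22.9 and 21.8 CPM in GelMA 2, 3 and 4, and 24.0, 28.0 and 25.5 CPM in PMLGH 2, 3 and 4. Only Model 2 reached into the range of GelMA, and no Model library reached that of PMLGH. Il1rap rose by 0.51 ± 0.12 in PMLGH against Model (adjusted p = 0.0064, and 0.054 on log2(FPKM + 0.1); range over its alternatives 3.4e-05 to 0.054). GelMA against Model did not pass (0.33 ± 0.12, adjusted p = 0.068); without Model 2 it gave 0.50 and passed (adjusted p = 0.00078).

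Il1rl1, the IL-33 receptor gene, known from mast cells, type 2 innate lymphoid cells and regulatory T cells, gave results that depended on Model 2. It had 15.7, 29.2 and 17.4 CPM in Model 1, 2 and 5, 32.1, 28.3 and 27.1 CPM in GelMA 2, 3 and 4, and 27.2, 29.1 and 25.3 CPM in PMLGH 2, 3 and 4. Model 2 lay within the range of GelMA and at the top of that of PMLGH, and the other Model libraries lay below both. GelMA against Model passed narrowly (0.49 ± 0.17 on the log2 scale, edgeR adjusted p = 0.0496) and PMLGH against Model did not (0.38 ± 0.17, adjusted p = 0.11). The GelMA call was lost in 13 of 17 alternatives, with adjusted p from 1.2e-05 to 0.20, among them leaving out Model 1 (0.20) or Model 5 (0.19). Without Model 2 both comparisons passed, with 0.78 in GelMA and 0.68 in PMLGH (adjusted p = 1.2e-05 and 3.9e-05). The summed level of mast cell and basophil markers was 286 CPM in Model 2 against 230 and 226 in Model 1 and 5, that of T and innate lymphoid markers 238 against 198 and 197, and that of neutrophil markers 14606 against 10945 and 11816. The macrophage and monocyte sum was 10327 CPM in Model 2 against 8203 and 9371. Cd4 made up most of the T and innate lymphoid sum, with a mean of 145 of 211 CPM in Model. Of 8 mast cell and basophil markers tested, 1 rose and 1 fell in PMLGH and 2 rose and 1 fell in GelMA against Model. Of 9 T and innate lymphoid markers 4 and 3 rose, where 15.7% and 12.7% of all genes tested rose and 11.9% and 9.88% fell. None of these markers was at 0 over the 9 libraries, and their part in the Il1rl1 values was not tested.

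Nlrp3 had 22.1, 28.4 and 25.1 CPM in Model 1, 2 and 5, 26.6, 23.0 and 27.7 CPM in GelMA 2, 3 and 4, and 27.2, 27.6 and 26.4 CPM in PMLGH 2, 3 and 4. The groups overlapped in all 3 comparisons. None passed, with log2 fold changes of 0.10 ± 0.10 in PMLGH against Model, 0.03 ± 0.10 in GelMA against Model and 0.07 ± 0.10 in PMLGH against GelMA (edgeR adjusted p = 0.48, 0.87 and 0.79). The sign of both comparisons with GelMA changed when a library was left out.

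**Figure D2:**
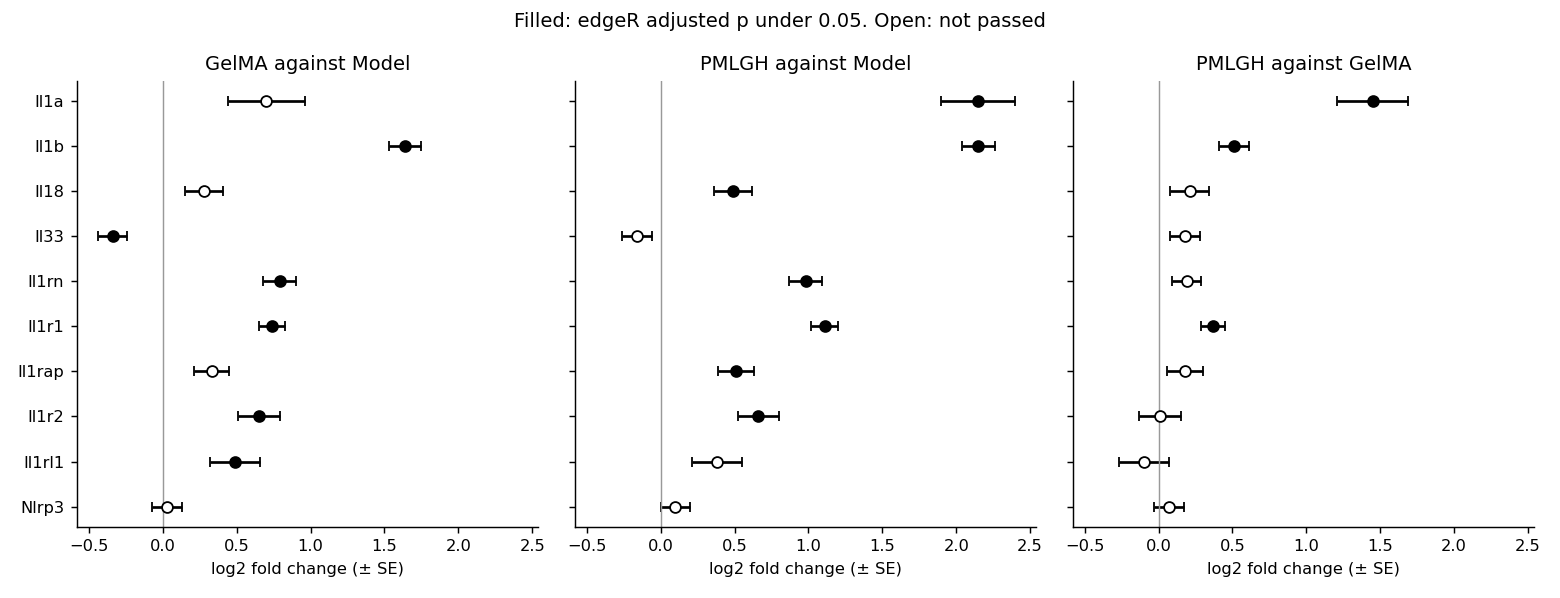
Log2 fold change of the 10 genes (horizontal axis, with approximate SE as bars) in each of the 3 comparisons, filled where edgeR adjusted p was under 0.05 and open otherwise. Il1b moved by 1.64 in GelMA and 2.15 in PMLGH against Model, and Il1a by 1.45 between PMLGH and GelMA.

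The balance between members was read within each library as a ratio of FPKM, counts scaled to gene length and library total by the authors, so that library scaling cancels. The ratio of Il1rn to Il1b, antagonist to agonist, was 1.88, 1.65 and 1.49 in Model 1, 2 and 5. It was 0.915, 0.925 and 0.924 in GelMA 2, 3 and 4, and 0.725, 0.751 and 0.740 in PMLGH 2, 3 and 4. The antagonist transcript was thus the more abundant per length in every Model library, and the agonist transcript in every treated library, with no overlap between any of the groups. In counts Il1rn exceeded Il1b in every library, for example 2445 against 1615 in GelMA 2 and 2330 against 1943 in PMLGH 2. Which of them leads therefore rests on the gene lengths behind the FPKM, while the differences in this ratio between groups do not. On the log2 scale the mean was 0.74 ± 0.17 in Model, -0.12 ± 0.01 in GelMA and -0.44 ± 0.03 in PMLGH (SD, n = 3). The differences were -0.85, -1.17 and -0.32 for GelMA against Model, PMLGH against Model and PMLGH against GelMA (exact two-sided permutation p = 0.1 each, the smallest that 3 against 3 libraries allow, and 0.3 adjusted over the 18 ratio tests).

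The ratio of the decoy Il1r2 to the signalling receptor Il1r1 overlapped between groups. It was 5.10, 6.84 and 4.71 in Model 1, 2 and 5, 4.96, 5.19 and 5.49 in GelMA 2, 3 and 4, and 2.92, 4.23 and 5.19 in PMLGH 2, 3 and 4. The PMLGH libraries were the most spread, with an SD of 0.42 on the log2 scale against 0.07 in GelMA, and PMLGH against Model differed by -0.45 (exact permutation p = 0.3). Il1r1 over Il1rap was higher in both treated groups than in Model without overlap, by 0.57 in PMLGH and 0.38 in GelMA on the log2 scale (exact permutation p = 0.1 each). Il33 over Il1rl1 was 2.31, 0.992 and 2.09 in Model 1, 2 and 5, 0.840 to 1.02 in GelMA and 0.988 to 1.32 in PMLGH, so that Model 2 again lay with the treated groups. Il1rl1 over Il1rap was 1.98 to 2.26 in PMLGH and 2.47 to 2.68 in GelMA, a log2 difference of -0.28 without overlap (exact permutation p = 0.1). For Il18 over Il18bp no pair of groups was free of overlap, and the ratio ran from 0.218 to 0.360 over all 9 libraries.

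**Figure D3:**
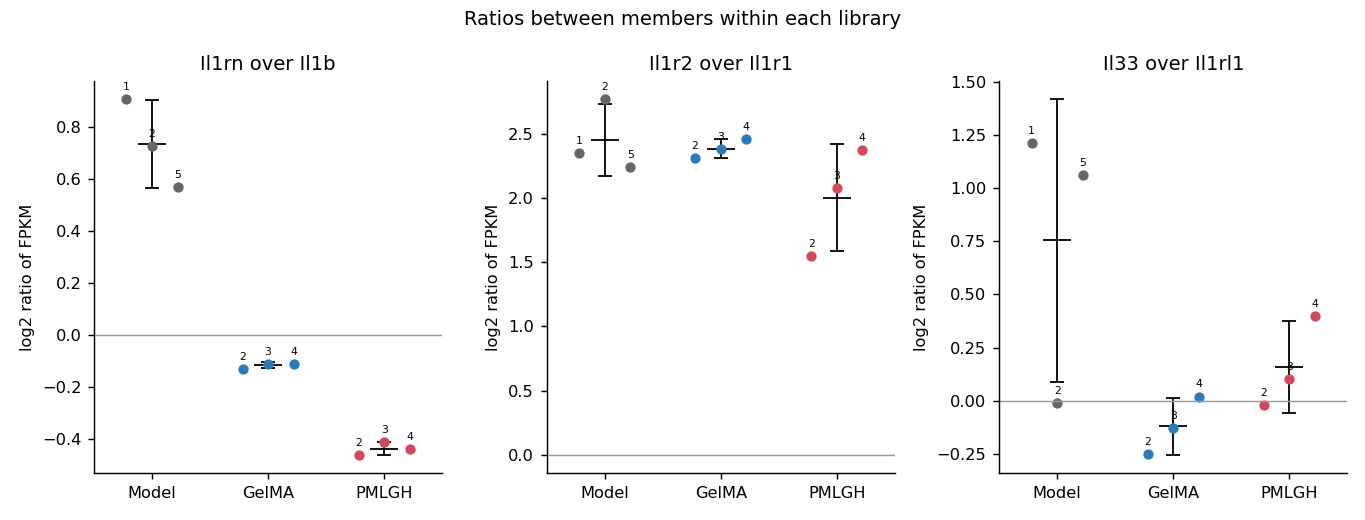
Log2 ratio of FPKM between pairs of members (vertical axis) in every library, with replicate numbers, group means and SD. For Il1rn over Il1b, Model lay above 0, GelMA just below it and PMLGH lowest at a mean of -0.44. For Il1r2 over Il1r1 and Il33 over Il1rl1 the groups overlapped in every comparison.

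Per length, the order of the members differed between groups. In Model, Il1rn (16.7 ± 2.81 FPKM, SD, n = 3) and Il1r2 (16.5 ± 3.18) led and overlapped, followed by Il1b at 10.1 ± 1.83. In GelMA, Il1b (32.2 ± 1.57) and Il1rn (29.7 ± 1.27) led and overlapped, and Il1r2 followed at 26.6 ± 1.6. In PMLGH, Il1b led alone at 45.0 ± 4.68, above Il1rn at 33.3 ± 4.03, which overlapped Il1r2 at 26.3 ± 5.18. The remaining 7 genes had group means of at most 6.49 FPKM, that of Il1r1 in PMLGH. Il1a was last in Model (0.478 ± 0.158 FPKM) and GelMA (0.798 ± 0.124), and in PMLGH (2.15 ± 0.133) it stood above Il1rap (1.18 ± 0.0896). In all 9 libraries the decoy gene had more FPKM than the signalling receptor gene. In counts Il1r1 led in Model 5, PMLGH 2 and PMLGH 3, for example with 1929 against 1150 in PMLGH 2. Il1r2 led in the other libraries, for example with 1431 against 1416 in GelMA 2. The order in FPKM thus rests on the gene lengths.

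Marker genes of the cells known to make these proteins were read beside them. The summed level of 12 macrophage and monocyte markers was 8203 to 10327 CPM in Model, 8264 to 9050 in GelMA and 10103 to 10905 in PMLGH, and that of 12 neutrophil markers 10945 to 14606, 12565 to 13638 and 12706 to 16421. Lyz2 made up most of the macrophage sum, with means of 7864, 7177 and 8793 CPM in Model, GelMA and PMLGH. In GelMA against Model that sum was 0.932-fold, while the mean log2 level of the list was 0.12 higher. Of the macrophage markers, 8 of 12 rose in PMLGH against Model, 4 rose and 1 fell in GelMA against Model, and 6 rose in PMLGH against GelMA. The shares of all genes tested that rose in these comparisons were 15.7%, 12.7% and 1.80%. Of the 11 neutrophil markers tested, 4, 1 and 0 rose in the same order and none fell. At an unadjusted edgeR p under 0.05 these were 5, 1 and 2, by DESeq2 3, 0 and 0, and without Model 2, a setting added after the data were seen, 9, 4 and 2. Model 2 enters PMLGH against GelMA only through the spread, scaling and filter of the shared fit, here and in the list counts below. List counts with another library left out are not given here. None of the markers of either list was at 0 over the 9 libraries. The log2 level of Il1b minus the mean log2 level of the macrophage list was -3.48 ± 0.15 in Model, -1.95 ± 0.07 in GelMA and -1.73 ± 0.11 in PMLGH (SD, n = 3), and it was higher relative to the list in every treated library than in any Model library. Relative to the neutrophil list Il1b stood at -4.56 ± 0.03, -3.01 ± 0.13 and -2.68 ± 0.10. Il1a relative to the macrophage list was at -6.96 ± 0.44, -6.33 ± 0.25 and -5.14 ± 0.12, and Il1rn at -2.02 ± 0.12, -1.34 ± 0.06 and -1.44 ± 0.13. The part of these cell types in the members' rise was not tested beyond these values.

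Stromal cells are a main site of Il1r1 and Il33, and the 10 fibroblast and stromal markers summed to 11301 to 13048 CPM in Model, 21341 to 23983 in GelMA and 24529 to 28315 in PMLGH. Col1a1 made up most of these sums, with means of 9734, 18385 and 20641 CPM in Model, GelMA and PMLGH. In each treated group 8 of 10 were higher against Model, where 12.7% of all genes tested rose in GelMA and 15.7% in PMLGH. Relative to that list Il1r1 was at -3.50 ± 0.11 in Model, -3.53 ± 0.17 in GelMA and -3.42 ± 0.11 in PMLGH on the log2 scale (mean ± SD, n = 3), and the groups overlapped. Relative to 10 endothelial markers it was at -0.95 ± 0.06, -0.42 ± 0.16 and -0.13 ± 0.14. Il33 stood at -3.45 ± 0.17 relative to the stromal list in Model and at -4.54 ± 0.08 and -4.62 ± 0.17 in GelMA and PMLGH, lower in both treated groups without overlap. Relative to the endothelial list it stood at -0.89 ± 0.13, -1.44 ± 0.07 and -1.33 ± 0.15. Skeletal muscle markers, a sign of another tissue in the sample, summed to 574 to 810 CPM in Model, 2710 to 3318 in GelMA and 910 to 1265 in PMLGH, with 10 of 10 higher in GelMA and 9 in PMLGH against Model. All 10 fell in PMLGH against GelMA, where 1.64% of all genes tested fell and Il1a, Il1b and Il1r1 rose. The part of muscle in the family's values was not tested.

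**Figure D4:**
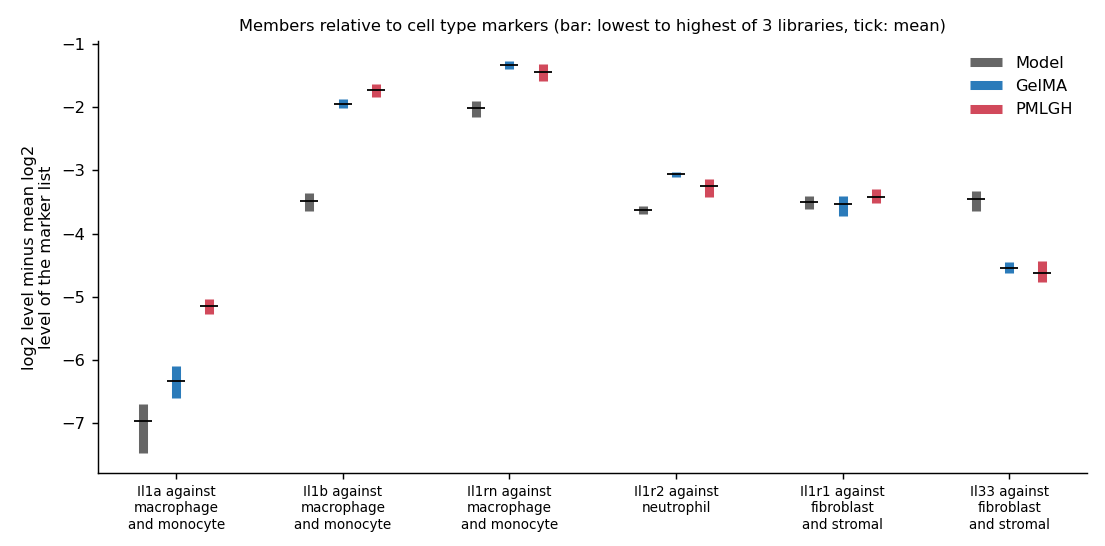
Log2 level of 6 members minus the mean log2 level of a list of cell type markers (vertical axis), where the bars run from the lowest to the highest of 3 libraries and the tick is the mean. Il1b had means of -3.48 in Model and -1.73 in PMLGH relative to macrophage markers, Il1r1 had means of -3.53 to -3.42 relative to stromal markers, and Il33 -3.45 in Model and -4.62 in PMLGH relative to the same list.

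Among 12 further ligands and receptors of the family, 6 were tested. In the same RefSeq table, Il1r1, Il1rl2, Il1rl1, Il18r1 and Il18rap follow one another as neighbouring coding genes, with Il1r2 a single coding gene away from Il1r1. Il1rl2, the receptor gene for IL-36, was low at 0.398 ± 0.102 CPM in Model (41 counts over 3 libraries), 1.67 ± 0.323 in GelMA and 2.08 ± 0.461 in PMLGH, and rose by 2.06 ± 0.36 and 2.38 ± 0.36 against Model (edgeR adjusted p = 0.0008 and 0.00018). Il18rap, an accessory chain of the IL-18 receptor, rose by 0.57 ± 0.11 in PMLGH against Model (adjusted p = 0.0014), while Il18r1, the ligand-binding chain, did not pass (0.17 ± 0.22, adjusted p = 0.62, and -0.05 without Model 1). Sigirr, an inhibitory receptor of the family, did not pass (0.44 ± 0.17, adjusted p = 0.067). In all, 3 of these 6 rose in PMLGH, 2 in GelMA against Model, none fell, and none passed between PMLGH and GelMA (median log2 fold changes 0.50, 0.34 and 0.25). Between PMLGH and GelMA 1 was higher at an unadjusted edgeR p under 0.05 and 1 by DESeq2, and 1 passed without Model 2. Over all genes tested, 15.7% rose in PMLGH against Model, 12.7% in GelMA against Model and 1.80% in PMLGH against GelMA.

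The shared signalling chain below the receptors had medians near 0. Of 17 genes, 6 rose and 1 fell in PMLGH against Model (median 0.05), 2 rose and 4 fell in GelMA against Model (median 0.02), and none passed in PMLGH against GelMA (median 0.07), where 2 were higher at an unadjusted edgeR p under 0.05 and 0 by DESeq2. The shares of all genes tested that passed, in either direction, were 27.5%, 22.6% and 3.44% in the same order. Peli2, a ubiquitin ligase of this pathway, rose by 0.63 ± 0.12 in PMLGH (edgeR adjusted p = 0.0011), and Irak2, a kinase of the receptor complex, by 0.46 ± 0.11 (adjusted p = 0.0066). Myd88, the adaptor that the signalling receptors use, rose by 0.34 ± 0.09 (adjusted p = 0.0087, and 0.056 without Model 5; range over its alternatives 0.00019 to 0.056). Tab3, an adaptor of the kinase TAK1, fell by 0.37 ± 0.07 (adjusted p = 0.0016).

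Of 18 inflammasome and pyroptosis genes tested, 8 rose and none fell in PMLGH against Model (median 0.21), 1 rose and 1 fell in GelMA against Model (median 0.09), and 1 rose in PMLGH against GelMA (median 0.11, and 4 without Model 2). Among all genes tested, 27.5%, 22.6% and 3.44% passed in these comparisons, in either direction. The core parts differed among themselves. Casp1, the protease that cuts IL-1 beta, was at 30.8 ± 2.60 CPM in Model and 35.0 ± 1.53 in PMLGH and did not pass (0.19 ± 0.08 on the log2 scale with edgeR adjusted p = 0.094, and 0.034 if Model 2 is left out). The adaptor Pycard did not pass either (0.10 ± 0.09, adjusted p = 0.43). Gsdmd, which forms the pore through which IL-1 beta leaves the cell, rose by 0.40 ± 0.09 (adjusted p = 0.0059), and Ninj1, which ruptures the membrane of dying cells, by 0.31 ± 0.07 (adjusted p = 0.0025). Nlrc4, the sensor of a separate inflammasome, rose by 0.50 ± 0.09 against Model (adjusted p = 0.001). It was the single gene of this list that rose in PMLGH against GelMA (0.42 ± 0.09, adjusted p = 0.019), a call lost without GelMA 2, 3 or 4 or PMLGH 3 or 4 and on both FPKM scales (range over its alternatives 0.0028 to 0.12). Txnip, a protein that can bind the Nlrp3 product, rose by 0.24 ± 0.05 against Model (adjusted p = 0.0042).

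Of 12 genes for proteases that cut or release the ligands and for the calpain inhibitor Cast, 5 rose and 1 fell in PMLGH against Model (median 0.24), 5 rose in GelMA against Model (median 0.10), and 1 rose in PMLGH against GelMA (median 0.10, and 2 without Model 2). Among all genes tested, 27.5%, 22.6% and 3.44% passed in these comparisons, in either direction. Mmp9, a gelatinase that can cut the IL-1 beta precursor, rose by 0.53 ± 0.07 in PMLGH (edgeR adjusted p = 8.3e-05), Bace1, which can shed the Il1r2 protein from the cell surface, by 0.51 ± 0.09 (adjusted p = 0.00077), and Cast by 0.30 ± 0.06 (adjusted p = 0.0013).

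Genes known to respond to interleukin-1 were higher as a group in both treated groups, although other signals induce them too. This list was chosen with earlier results of these data known, so its counts only describe these libraries. Of 20 tested, 19 rose in PMLGH against Model with a median log2 fold change of 1.58, and 15 rose in GelMA against Model with a median of 1.31. In PMLGH against GelMA 6 rose with a median of 0.50 (11 without Model 2, which enters there only through the shared fit). None fell in any of the 3 comparisons, and at an unadjusted edgeR p under 0.05 1 was lower, in PMLGH against GelMA, and by DESeq2 0. The shares of all genes tested that rose were 15.7%, 12.7% and 1.80% in the same order. Nos2, the inducible nitric oxide synthase, was at 15.5 ± 2.78 CPM in Model, 64.2 ± 1.36 in GelMA and 91.4 ± 12.1 in PMLGH. Its call in PMLGH against GelMA (edgeR adjusted p = 0.012) was lost without GelMA 2, GelMA 3, PMLGH 3 or PMLGH 4. It was also lost with limma on both log2 FPKM scales (range over its alternatives 0.00015 to 0.11). The stromal protease gene Mmp3 was at 3.44 ± 0.179 CPM in Model, 19.5 ± 1.55 in GelMA and 15.8 ± 0.574 in PMLGH, and PMLGH against GelMA did not pass (-0.31 ± 0.10, edgeR adjusted p = 0.12). Cxcl2, a neutrophil chemokine, had 10 counts over the Model libraries, 1410 over GelMA and 2021 over PMLGH. Csf2 was too low to be tested, with 2, 2 and 22 counts over the 3 libraries of each group, and Lcn2 was the tested gene that did not pass in PMLGH against Model (0.27).

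**Figure D5:**
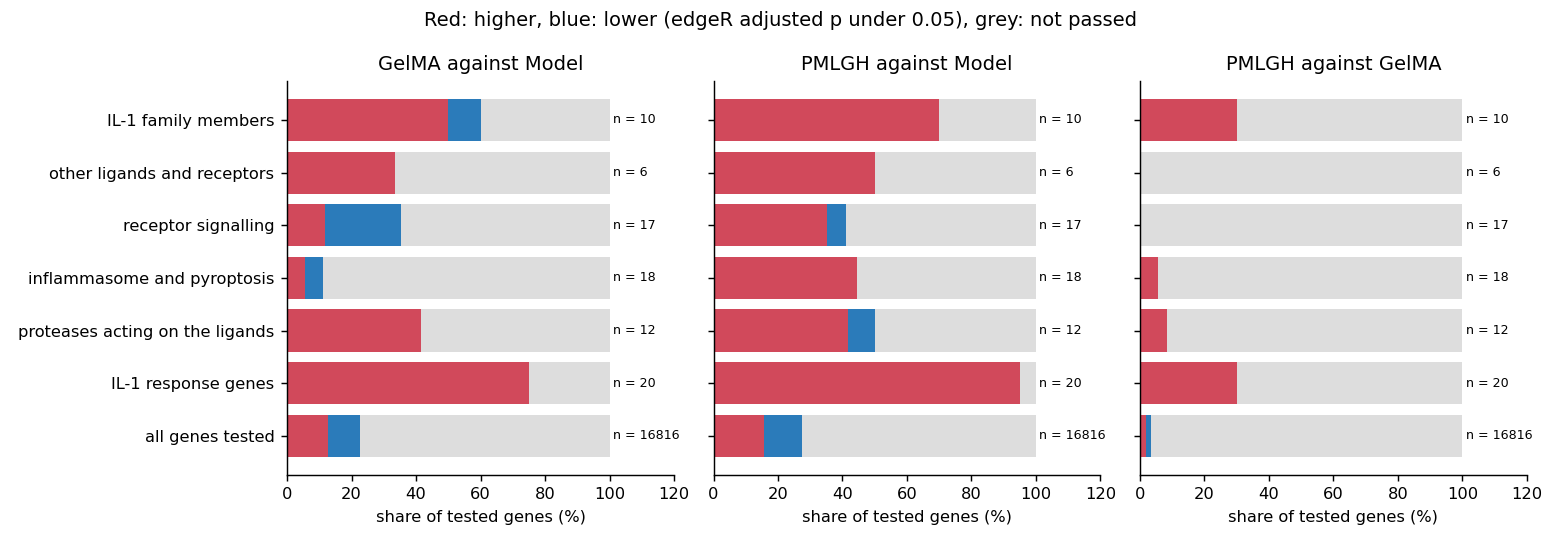
Share of tested genes (horizontal axis, percent) of each gene list that was higher, lower or not passed at edgeR adjusted p under 0.05 in the 3 comparisons, with the number tested. In PMLGH against Model 19 of 20 response genes and 7 of 10 family genes were higher, against 15.7% of all genes tested. The lists were chosen with earlier results of these data known.

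Genes whose levels followed those of a member most closely were found by the distance between log2 CPM profiles centred on their mean over the 9 libraries, among 12861 genes of at least 1 CPM on average. This is a description, since all genes share the libraries and their grouping. Nearest to Il1b were the chemokine gene Cxcl16 (distance 0.508), which had 10.4 ± 1.16 CPM in Model, 29.1 ± 2.62 in GelMA and 45.9 ± 4.57 in PMLGH, Sorcs2 (0.586) and the complement protease gene C1s (0.594). Nearest to Il1rn were the collagen gene Col7a1 (0.307), Fstl1 (0.315) and the IL-4 receptor gene Il4r (0.327). Among the nearest to Il1rl1 were Entpd2 (0.320) and Csrnp1 (0.334). Nearest to Il33 were Pacc1 (0.185), Nfix (0.211) and Ssh1 (0.218).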

How the data were processed

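The authors deposited raw counts per gene symbol and FPKM for the same 23768 genes, of which 970 had 0 counts in all 9 libraries. Each FPKM equalled the count over the library total and 1 length per gene for the other 22798 genes (relative tolerance 0.0001), so the deposited FPKM add no independent measurement. The submitters' processing notes name DESeq2 and R 3.2.0 with no role; for aligner, counter, build, annotation and strand, the sources used here state nothing. Counts were fitted with edgeR 4.0.16 in R 4.3.3 (filterByExpr, TMM, quasi-likelihood, 1 mean per group, all 9 libraries, 6 residual degrees of freedom, checked on simulated data), two-sided, with Benjamini-Hochberg adjustment over 16816 genes and a threshold of 0.05. An SE is the log2 fold change over the square root of F. Precision rests on 34571478 to 37166383 counts per library and 3 libraries per group.

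Ratios between members were compared by exact permutation. Alternatives were RLE and upper-quartile scaling, DESeq2 1.42.0, limma 3.58.1 on log2(FPKM + 0.1) and log2(FPKM + 1), no filter, robust spread, only the groups compared, a replicate block and leaving out each library. The members and the lists (183 symbols, 179 in the table) were chosen with earlier results of these data known. Named list genes are up to 3 of smallest p in PMLGH against Model among those passing anywhere, and direct partners of members; Csf2 and Lcn2, the TATA letters and the differences to marker lists were added after values were seen. Of the genes nearest to members in profile, 1 is not reported here.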

Additional observations from a re-analysis of the deposited data

How the results depend on the processing

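Direction and side of the threshold held in every alternative for Il1b, Il1rn, Il1r1 and Il1r2 in both comparisons with Model, and for Il1a in PMLGH against Model and against GelMA. The number of family genes that passed in PMLGH against GelMA, 3, was 1 (Il1a) on both FPKM scales and ranged from 1 to 3 when a library was left out. It ranged from 6 to 9 in PMLGH against Model and from 4 to 8 in GelMA against Model.

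The signs that changed belonged to values near 0. Il1r2 in PMLGH against GelMA was -0.0092 under upper-quartile scaling, -0.03 on both FPKM scales, -0.0083 with the replicate block, and -0.1 to 0.16 with a library left out (-0.003 without GelMA 2, -0.03 without GelMA 4, -0.06 without PMLGH 3). Nlrp3 was -0.06 without Model 1 and -0.04 without GelMA 4 in GelMA against Model (up to 0.09), and -0.0045 without GelMA 3 in PMLGH against GelMA (up to 0.12). Il18r1 in PMLGH against Model was -0.05 without Model 1 and up to 0.32. Leaving out a library also turned the log2 ratio of Il1r2 over Il1r1 in GelMA against Model (from -0.18 to 0.09, the latter without Model 2), of Il1rl1 over Il1rap in PMLGH against Model (from -0.14 to 0.0092, the latter without Model 2) and of Il18 over Il18bp in PMLGH against GelMA (from -0.06 to 0.18, with -0.06, -0.05, -0.02 and -0.01 in 4 of 6 cases). The cause was not tested.

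GelMA and PMLGH share the numbers 2, 3 and 4. The deviations of same-numbered libraries correlated at 0.01, 0.03 and -0.01, and those of differently numbered libraries at -0.03 to 0.01. No label says whether a number stands for an animal, litter or day, and these correlations over 3 libraries per group cannot settle it. With the replicate block 3 family genes passed, as without it. At these depths the least covered member, Il1a, rests on 27 to 56 counts per Model library.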

Other observations

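The 5 family genes too low to be tested had few counts. Il1rapl1 had 1 count in Model 5, 6 in GelMA 2 and 1 in GelMA 4, and Il1rapl2 had 4 in Model 1, with 0 in the libraries not named. GelMA 4 held 9 counts of Il36rn, the IL-36 receptor antagonist gene, 2 of Il36g and 2 of Il1f10, and every other library held 0 of each. In the list of epithelial markers, the keratin genes Krt1, Krt10 and Krt14 had 606, 593 and 159 counts in that library, against 7 to 30, 11 to 51 and 0 to 20 in the other 8. Krt5, Krt8, Krt18 and Cdh1 of the same list did not stand out in this way. Krt5 had 96 counts there, within the 0 to 105 of the others, Krt8 was at 1.89 to 2.41 CPM in GelMA and 1.72 to 2.29 in Model, Krt18 at 0 to 0.297 and 0.197 to 0.324, and Cdh1 fell by 0.39 ± 0.07 on the log2 scale in GelMA against Model (edgeR adjusted p = 0.00085). Krt15 had 0 to 54 counts in GelMA and 6 to 21 in Model, and Epcam 9 to 13 and 2 to 11. The list summed to 147 CPM in GelMA 4, 111 and 97.1 in GelMA 2 and 3, and 136 to 138 in Model. Il1a, which keratinocytes also express, had 63 counts in GelMA 4, the lowest of its group. These 3 keratins were singled out after their values were seen.

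Il6, a cytokine gene that interleukin-1 induces, was also picked out after its values were seen. It had 2, 5 and 1 counts in Model 1, 2 and 5, 19, 15 and 7 in GelMA 2, 3 and 4, and 66, 65 and 62 in PMLGH 2, 3 and 4. The 3 groups did not overlap, as was the case for Il1a, Il1b and Il1r1. Of all genes tested, 39.4% did not overlap between PMLGH and Model, 36.6% between GelMA and Model, and 23.7% between PMLGH and GelMA.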
